A study of Bos taurus with 6 samples.

Results

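HOX genes encode transcription factors that bind DNA through a homeodomain and lie in 4 clusters, HOXA, HOXB, HOXC and HOXD. Genes at corresponding positions of different clusters form paralog groups, numbered from 1 to 13, and the order of the groups along a cluster follows the order in which the genes are active from the front to the rear of the embryo. In the female tract HOXA9, HOXA10, HOXA11 and HOXA13 are known for dividing the Müllerian duct into oviduct, uterus, cervix and upper vagina. HOXA10 and HOXA11 remain active in the adult endometrial stroma, where implantation depends on them.

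Members were all rows named HOXA, HOXB, HOXC or HOXD followed by a number, 39 genes of 34733 named genes. There were 11 in HOXA (chromosome 4, build ARS-UCD1.2), 10 in HOXB (chromosome 19, 37792218 to 37959268), 9 in HOXC (chromosome 5, 25977635 to 26093573) and 9 in HOXD (chromosome 2, 20724251 to 20820784). All 39 symbols were found in a RefSeq gene table of the later assembly ARS-UCD2.0.

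Side population (SP) cells were compared with main population (MP) cells, both sorted from the uterine lining (endometrium) of luteal-phase cows. Healthy uteri were taken at slaughter, and tissue labelled intracarrancular, freed of luminal epithelium, was digested with collagenase to give stromal cells. SP cells pump out the dye Hoechst 33342, a property used to enrich stem-like cells, and MP cells keep it; verapamil, which blocks the pump, served as a control stain, and cells taking up propidium iodide were left out. Each population had 3 poly(A) RNA libraries; age, breed and number of animals are not given in the labels, and no sorting antibody is named.

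Levels are FPKM, fragment counts divided by transcript length and by the mapped total of a library, so levels of different genes are per unit of length. The files give no counts. From the steps of low values the depths of SP replicates 1 to 3 stood as 1.00, 1.60 and 1.82 and those of MP replicates 1 to 3 as 2.32, 3.18 and 1.99, relative to SP replicate 1. Nothing in the labels says that replicates were separate animals; p-values therefore reflect only the spread among these samples, which may be technical. The word micro stands in the column header of every MP library and of no SP library, without explanation, and whatever it marks cannot be told apart from the population. Markers of several other cell types moved with the sort; only genes that reached 1 FPKM in at least 3 of the 6 libraries, the filter on low values, were tested. Over all tested genes 20.5% were called higher in SP and 18.7% lower (limma adjusted p under 0.05), and the populations did not overlap in 54.8%. Of 10 endothelial markers 10 rose in SP, with a summed level of 1307 to 1994 FPKM in SP and 108.6 to 680.2 FPKM in MP. Of 10 stromal fibroblast markers 9 fell, among them DPT and HAND2, which were under 1 FPKM in every SP library and so could be tested only if MP was high, with a summed level of 287.8 to 484.2 FPKM in SP and 3091 to 11340 FPKM in MP. Of 9 pericyte and smooth muscle markers 5 fell and 4 did not pass, with MCAM higher on average in SP (log2 fold change 1.34, limma adjusted p = 0.0573); they summed to 213.0 to 292.6 FPKM in SP and 664.5 to 1132 FPKM in MP. Of 8 epithelial markers none passed, by limma or at an unadjusted p under 0.05, and all overlapped, with sums of 163.3 to 1572 FPKM in SP and 876.3 to 3987 FPKM in MP. No marker of these 4 lists was at 0 in a library. Myeloid markers summed to 107.8 to 139.9 FPKM in SP and 279 to 557.7 FPKM in MP. Of the 6, 4 fell, AIF1 and CSF1R with a direction set by the filter, and AIF1 was at 0 in 1 SP library. Mast cell markers summed to 14.64 to 33.91 FPKM in SP and 400.5 to 976.8 FPKM in MP (3 of 4 fell, FCER1A with a direction set by the filter). Most of the SP sum came from CD14 for myeloid markers and from KIT for mast cell markers. CD14 averaged 97.59 FPKM in SP and 63.73 FPKM in MP, and KIT 21.85 and 12.15 FPKM. Neither passed (log2 fold changes 0.73 and 0.84, limma adjusted p = 0.14 and 0.155). CD68 did not pass either and was lower on average in SP (−0.56). T and NK cell markers summed to at most 0.79 FPKM in SP and to 23.51 to 56.48 FPKM in MP (all 4 tested were under 1 FPKM in SP, so the filter set their direction), and B cell markers to at most 0.81 FPKM and 3.288 FPKM, with MS4A1 at 0 in all SP libraries. Erythroid markers summed to at most 0.632 FPKM, with HBB at 0 throughout. In such bulk libraries fewer cells of a type and less RNA per cell cannot be told apart, and the part of cell make-up in the HOX values was not tested.

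HOXD supplied the largest share of HOX transcripts in every SP library, whereas HOXA took a larger share in MP than in SP. The summed HOX level was 213.3, 103.97 and 146.9 FPKM in the SP libraries and 164.3, 94.09 and 141.1 FPKM in the MP libraries, and the populations overlapped. Here and below 3 values stand in the order of replicates 1, 2 and 3. HOXA gave 4.8%, 17.6% and 11.7% of that sum in SP and 61.3%, 37.6% and 33.2% in MP. HOXD gave 74.0%, 40.2% and 50.7% in SP and 26.6%, 23.2% and 35.9% in MP. The shares of both clusters did not overlap between the populations, whereas those of HOXB (19.6% to 39.9% in SP, 11.1% to 37.9% in MP) did, and HOXC gave at most 2.4% in any library. In SP replicate 2 HOXB, at 39.9%, was close to HOXD. Shares depend on all clusters, and the summed HOXD level overlapped. It was 157.9, 41.75 and 74.41 FPKM in SP and 43.67, 21.82 and 50.64 FPKM in MP. The summed HOXA level did not overlap (10.2, 18.3 and 17.13 FPKM against 100.79, 35.42 and 46.88 FPKM).

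**Figure D1:**
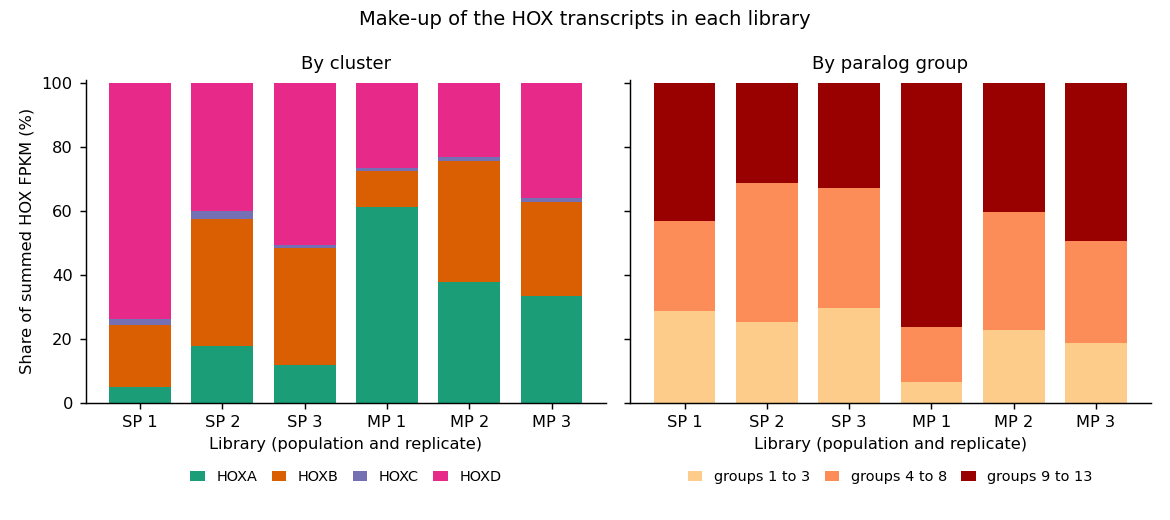
Share of the summed HOX FPKM of each library (percent, bars stacked from 0) taken by each cluster (left) and by ranges of paralog groups (right), for SP replicates 1 to 3 and MP replicates 1 to 3. HOXA held 4.8% to 17.6% of the sum in SP and 33.2% to 61.3% in MP.

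The highest mean levels in SP were those of HOXD10 (29.8 FPKM), HOXD1 (20.0 FPKM), HOXD8 (16.2 FPKM), HOXD9 (16.0 FPKM) and HOXB2 (12.98 FPKM). In MP they were those of HOXA10 (21.8 FPKM), HOXA11 (20.5 FPKM), HOXD10 (14.5 FPKM), HOXB2 (12.0 FPKM) and HOXB7 (8.03 FPKM). Within either list neighbours in the order had overlapping libraries. HOXB2 and HOXD10 were thus among the most abundant members in both populations, and HOXA10 and HOXA11 in MP alone.

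**Figure D2:**
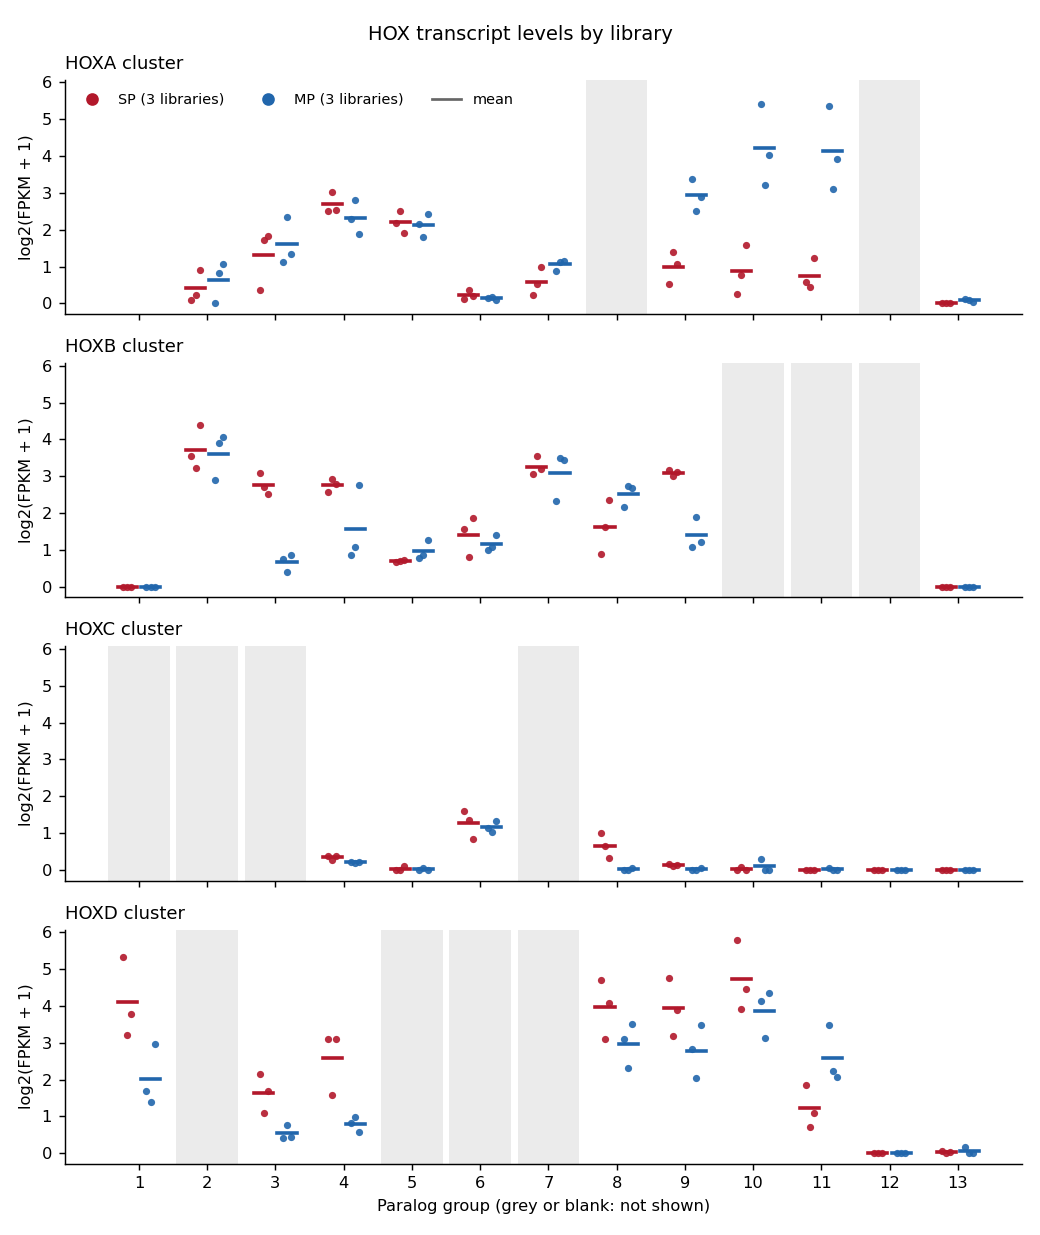
Level of 38 HOX genes as log2(FPKM + 1) (y axis) against its paralog group (x axis), one panel per cluster, with a point per library and a line at the mean of 3 libraries. The points of HOXA9, HOXA10 and HOXA11 lie lower in SP than in MP, those of HOXB3, HOXB9, HOXD1, HOXD3 and HOXD4 higher, and most HOXC genes lie near 0.

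Of the 39 members 21 passed the filter and were tested. Fold changes are SP minus MP on the log2(FPKM + 1) scale, so the change of low genes comes out too small, and calls are at an adjusted p under 0.05 (limma, Benjamini-Hochberg over 12127 genes). Of the 21, 5 rose in SP, 4 fell and 12 did not pass. Over all tested genes 39.2% were called, 20.5% higher and 18.7% lower, so the 42.9% of the HOX genes called was near the background. HOXB3, HOXD3 and HOXD4 were under 1 FPKM in every MP library, so they could enter the test only if SP was high; without them 2 of 18 rose and 4 fell. The median log2 fold change was 0.24 for the 21 and 0.14 for the 18, against 0.01 for all genes. The SP and MP values did not overlap in 9 of the 21, or 42.9%, against 54.8% of all tested genes; SP lay above in 5 (28.3% of all tested genes) and below in 4 (26.5%). The 5 higher calls became 1 without SP replicate 1 or 3 and 3 without SP replicate 2 or MP replicate 1; without an SP library HOXB3, HOXD3 and HOXD4 were no longer tested.

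**Figure D3:**
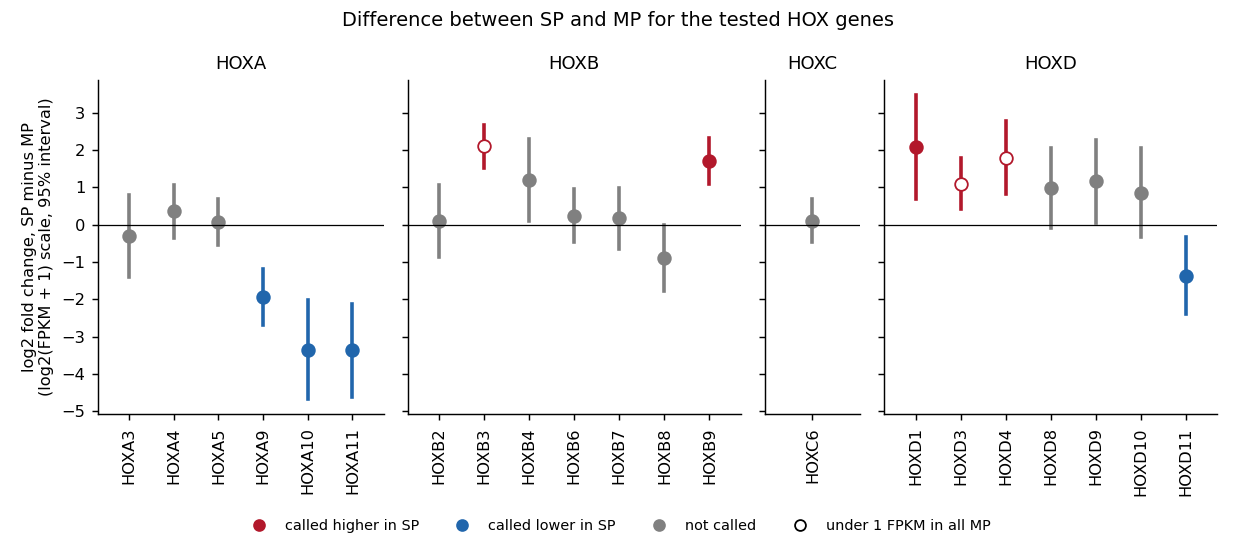
Log2 fold change of SP minus MP on the log2(FPKM + 1) scale (y axis) with its 95% interval from limma for the 21 tested HOX genes (x axis), by cluster in order of paralog group. Red marks genes called higher in SP, blue those called lower, grey those not called, and open circles the 3 genes under 1 FPKM in every MP library.

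By paralog group, the calls lower in SP all fell in groups 9 to 11. They were HOXA9, HOXA10 and HOXA11, which lie side by side, and HOXD11, which was called in 9 of 19 alternatives. Over all tested genes 18.7% were called lower in SP and 20.5% higher. Of the 7 tested genes of groups 9 to 13, 4 fell and 1, HOXB9, rose, with a median log2 fold change of −1.37. Of the 9 tested genes of groups 4 to 8 only HOXD4 was called, higher in SP (median 0.24). Of the 5 tested genes of groups 1 to 3, 3 rose and none fell, the same at an unadjusted p under 0.05 (median 1.10), but 2 of these 3, HOXB3 and HOXD3, had their direction set by the filter. Genes of groups 9 to 13 made up 43.2%, 31.4% and 32.8% of the summed HOX level in SP and 76.3%, 40.3% and 49.5% in MP, where SP replicate 1 lay above MP replicate 2.

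In HOXA the genes of the rear end of the cluster were low in SP. HOXA10 (68862754 to 68873779), needed in the uterus for stromal growth and implantation, measured 0.189, 0.709 and 2.02 FPKM in SP against 41.8, 8.32 and 15.4 FPKM in MP. Every MP value lay above every SP value. Its mean was 22.5-fold lower in SP (12.2-fold without MP replicate 1 and 48.6-fold without SP replicate 3), and its log2 fold change was −3.35 ± 0.57 (SE, adjusted p = 0.00563 by limma).

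HOXA11 (68857317 to 68861039), which acts with HOXA10 in the uterus, was at 0.498, 0.356 and 1.35 FPKM in SP and at 40.0, 7.60 and 14.1 FPKM in MP. Its mean was 28.0-fold lower in SP (log2 fold change −3.37 ± 0.54 SE; limma adjusted p = 0.00465), 14.8-fold without MP replicate 1 and 48.1-fold without SP replicate 3. HOXA9 (68877182 to 68880322), a gene of the oviduct part of the Müllerian duct, was at 0.443, 1.61 and 1.08 FPKM in SP and at 9.44, 4.71 and 6.43 FPKM in MP (−1.94 ± 0.32 SE; limma adjusted p = 0.00509). The 3 genes were ordered alike over the MP libraries, highest in replicate 1 and lowest in replicate 2. The summed fibroblast markers were also highest in MP replicate 1 (11340 FPKM) but stood at 5282 FPKM in replicate 2 and 3091 FPKM in replicate 3. All 3 genes were called in each of 19 alternative analyses (adjusted p from 0.00397 to 0.0385). Without SP replicate 3, alone or with MP replicate 3, HOXA10 and HOXA11 were under 1 FPKM in the SP libraries left. The filter then set their direction. HOXA13, a gene of the lowest part of the tract, did not exceed 0.0756 FPKM in any library.

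The tested genes at the front of HOXA did not pass. HOXA3 had a log2 fold change of −0.30 (95% interval −1.39 to 0.79), HOXA4 of 0.36 (−0.35 to 1.06) and HOXA5 of 0.08 (−0.54 to 0.69). HOXA4 was at 4.74, 7.10 and 4.77 FPKM in SP and at 3.93, 6.06 and 2.66 FPKM in MP, and HOXA5 at 3.52, 4.74 and 2.77 FPKM and at 3.48, 2.48 and 4.35 FPKM. HOXA3, HOXA4, HOXA5 and HOXA6 are listed with one locus (68890109 to 68934988), and their split of reads is uncertain. The genes of groups 9 to 13 gave 11.2%, 14.6% and 26.0% of the HOXA sum in SP and 90.5%, 58.4% and 76.7% in MP.

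Below the filter, HOXA2 was at most 1.10 FPKM, HOXA6 at most 0.297 FPKM and HOXA7 at most 1.24 FPKM, each with overlapping populations.

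In HOXD the front genes were high in SP and the rear gene HOXD11 was low. HOXD1 (20724251 to 20726458), the most anterior gene of the cluster, was at 39.1, 8.23 and 12.7 FPKM in SP and at 2.23, 1.63 and 6.81 FPKM in MP, without overlap. Its log2 fold change was 2.08 ± 0.60 (SE, limma adjusted p = 0.0299). The call was lost without SP replicate 1 (1.47, adjusted p = 0.0736), SP replicate 3 (2.25, 0.058), MP replicate 1 (1.92, 0.0868) or MP replicate 2 (1.77, 0.0931), and with no filter on low values (0.0749). HOXD1 was highest in SP replicate 1, and MP replicate 3, with the highest endothelial sum of MP (680.2 FPKM), held the highest MP value. Of the other genes called higher in SP, HOXB3 was also highest in MP replicate 3 among MP. HOXB9 and HOXD3 were highest in MP replicate 2, and HOXD4 was lowest in MP replicate 3. A link to endothelial content was not tested.

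HOXD4 (20759992 to 20776535), a gene of the neck region of the embryo, was at 7.52, 1.97 and 7.55 FPKM in SP and at 0.753, 0.987 and 0.482 FPKM in MP (log2 fold change 1.80 ± 0.42 SE; limma adjusted p = 0.0147). HOXD3 (20734749 to 20745683) was at 3.43, 1.13 and 2.23 FPKM in SP and at 0.339, 0.701 and 0.351 FPKM in MP (1.10 ± 0.30 SE; limma adjusted p = 0.0230). Both had their direction set by the filter. HOXD3 was lost without MP replicate 1 (adjusted p = 0.0688) or MP replicate 3 (0.0507), and with no filter (0.0523).

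The middle of HOXD was abundant in both populations. HOXD10, a gene of the lower spine and limb, was at 54.1, 14.1 and 21.1 FPKM in SP and at 16.5, 7.69 and 19.2 FPKM in MP, with overlap (log2 fold change 0.86, 95% interval −0.34 to 2.06). HOXD9 was at 26.1, 8.08 and 13.8 FPKM and at 6.04, 3.15 and 10.2 FPKM (1.16, 0.04 to 2.28; limma adjusted p = 0.0911), and passed without MP replicate 3 (1.51, adjusted p = 0.0462). HOXD8 was at 25.0, 7.56 and 15.9 FPKM and at 7.56, 3.99 and 10.4 FPKM (0.98, −0.09 to 2.06), and passed without SP replicate 2 (1.41, adjusted p = 0.0475). HOXD9 also passed with libraries rescaled to one sum (1.39, adjusted p = 0.0401), and HOXD10 passed in none of 19 alternatives.

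HOXD11 (20803593 to 20806307), which patterns the forearm and lower spine together with HOXA11, was at 2.61, 0.642 and 1.13 FPKM in SP and at 10.1, 3.67 and 3.16 FPKM in MP. It fell in SP by 1.37 ± 0.44 in log2 units (SE, adjusted p = 0.0432 by limma) without overlap. This call sat close to the threshold. It was lost without SP replicate 2 (−1.11, adjusted p = 0.127), SP replicate 3 (−1.30, 0.109), MP replicate 1 (−0.92, 0.102) or MP replicate 2 (−1.55, 0.0675), and with the 4 other settings and 2 replicate numbers given at the end. HOXD12 is listed at 0 throughout and HOXD13 was at most 0.121 FPKM. In SP all 7 tested HOXD genes were lowest in replicate 2, and 6 of them, all but HOXD4, were highest in replicate 1.

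In HOXB the single members differed without an order along the cluster. HOXB9 (37866983 to 37870934), the most posterior HOXB gene with a measurable level, was at 7.98, 6.96 and 7.63 FPKM in SP and at 1.11, 2.68 and 1.33 FPKM in MP. Its log2 fold change was 1.70 ± 0.27 (SE, limma adjusted p = 0.00443), it did not overlap, and it was called in each of 19 alternatives (adjusted p from 0.00304 to 0.0448). HOXB3 was at 7.53, 5.52 and 4.69 FPKM in SP and at 0.686, 0.304 and 0.816 FPKM in MP (2.1 ± 0.25 SE; limma adjusted p = 0.00207), with a direction set by the filter.

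HOXB4, known for expanding blood stem cells, was at 4.94, 6.65 and 5.94 FPKM in SP and at 0.821, 1.11 and 5.73 FPKM in MP. MP replicate 3 lay inside the SP range and the gene did not pass (log2 fold change 1.2, 95% interval 0.10 to 2.31; limma adjusted p = 0.0786). Without that library it rose (1.80, adjusted p = 0.00387), and it also passed after rescaling each library to one sum (1.46, 0.0402). The endothelial sum was likewise highest in that library among MP, but HOXB9, also higher in SP, was highest in MP replicate 2. A link to endothelial content was not tested. HOXB3 and HOXB4 are listed with one locus (37913845 to 37944848) that also holds 2 uncharacterised entries, so their split of reads is uncertain.

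HOXB2, HOXB6 and HOXB7 did not pass, with log2 fold changes of 0.10 (95% interval −0.86 to 1.07), 0.24 (−0.47 to 0.95) and 0.17 (−0.64 to 0.99). HOXB2 was at 10.6, 8.26 and 20.0 FPKM in SP and at 6.37, 13.9 and 15.7 FPKM in MP, and HOXB7 at 7.26, 10.6 and 8.10 FPKM and at 4.03, 10.2 and 9.88 FPKM. HOXB8, at 0.850, 2.07 and 4.13 FPKM in SP and at 3.47, 5.59 and 5.43 FPKM in MP, had −0.90 (−1.79 to −0.01; limma adjusted p = 0.0967) and fell without SP replicate 3 (−1.27, adjusted p = 0.0388). HOXB5, under the filter, was at 0.598 to 0.646 FPKM in SP and 0.729 to 1.39 FPKM in MP, without overlap. HOXB1 and HOXB13 are listed at 0 throughout.

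HOXC was nearly silent. HOXC6 alone passed the filter, at 2.01, 1.58 and 0.792 FPKM in SP and at 1.19, 1.04 and 1.50 FPKM in MP, and its values overlapped (log2 fold change 0.11, 95% interval −0.47 to 0.69). No HOXC gene was called, with limma or at an unadjusted p under 0.05. Below the filter, HOXC8, a gene of the trunk, was at 1.01, 0.563 and 0.247 FPKM in SP, and in MP it is listed at 0 in replicates 1 and 2 and was at 0.0377 FPKM in replicate 3. HOXC4 was at 0.193 to 0.310 FPKM in SP and 0.129 to 0.167 FPKM in MP, and HOXC9 at 0.0701 to 0.112 FPKM and 0 to 0.0313 FPKM. HOXC5, HOXC10 and HOXC11 were at most 0.225 FPKM, and HOXC12 and HOXC13 are listed at 0 throughout.

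Altogether 18 members did not reach the filter and 5 of them are listed at 0 in every library. Over the 34 members with any value, all SP values lay above all MP values in 9 (26.5%) and below in 6 (17.6%), against 19.9% and 20.5% of the 20810 genes with any value. With no filter on low values HOXC8 rose (log2 fold change 0.64 ± 0.17 SE; limma adjusted p = 0.0481).

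Members of one paralog group bind like DNA sites, so their balance within a library was compared. An FPKM ratio within a library does not depend on how libraries are scaled, but the tested difference of log2(FPKM + 1) levels does, most for genes under 1 FPKM. For 13 pairs of tested genes the difference of the log2(FPKM + 1) levels was compared between the 3 SP and the 3 MP libraries with a two-sided exact permutation test, whose smallest possible p is 0.1. The smallest p adjusted over the 13 pairs was 0.162, so none could pass. HOXA10 stood to HOXD10 as 0.00349, 0.0501 and 0.0956 in SP and as 2.53, 1.08 and 0.802 in MP. The FPKM ratio of HOXA10 to HOXD10 was under 0.1 in every SP library and near or above 1 in MP, a difference of −4.21 ± 0.97 (SE) on the log2(FPKM + 1) scale (exact permutation p = 0.1).

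In group 9 HOXA9 stood to HOXB9 as 0.0555, 0.231 and 0.142 in SP and as 8.54, 1.75 and 4.84 in MP, so HOXB9 exceeded HOXA9 in all SP libraries and HOXA9 exceeded HOXB9 in all MP libraries (difference −3.64 ± 0.57 SE; exact permutation p = 0.1). HOXB9 and HOXD9 kept overlapping ratios, 0.306 to 0.861 in SP and 0.130 to 0.851 in MP (0.54 ± 0.75 SE; exact permutation p = 0.5). In group 11, where both tested genes fell, HOXA11 stood to HOXD11 as 0.191, 0.555 and 1.2 in SP and as 3.96, 2.07 and 4.46 in MP (−2.01 ± 0.53 SE; exact permutation p = 0.1). In groups 4 and 6 the differences of the 4 pairs overlapped on the log2(FPKM + 1) scale (exact permutation p from 0.2 to 0.9). The FPKM ratio of HOXA4 to HOXD4 itself did not overlap. It was 0.63, 3.6 and 0.632 in SP and 5.21, 6.14 and 5.51 in MP, where HOXD4 was under 1 FPKM.

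**Figure D4:**
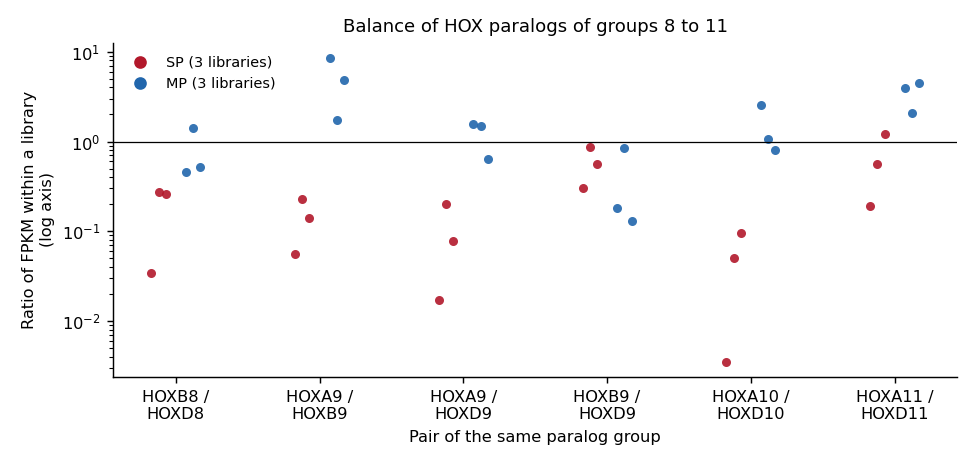
Ratio of the FPKM of 2 HOX genes of one paralog group within each library (y axis, log scale, line at 1) for the tested pairs of groups 8 to 11 (x axis), with a point per SP and MP library. The ratio of HOXA10 to HOXD10 lay between 0.00349 and 0.0956 in SP and between 0.802 and 2.53 in MP.

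HOX proteins gain binding specificity from partner homeodomain proteins of the PBX, MEIS and PKNOX families. Of 8 such genes 7 were tested, and 3 fell in SP, none rose and 4 did not pass (limma); at an unadjusted p under 0.05, 3 were lower and 1, MEIS2, higher. The share called was near the 39.2% of all tested genes. MEIS1 was at 1.06, 1.29 and 1.60 FPKM in SP and at 15.6, 10.3 and 7.48 FPKM in MP (log2 fold change −2.34 ± 0.29 SE; limma adjusted p = 0.00228). MEIS3 was at 0.221, 0.544 and 1.71 FPKM in SP and at 21.3, 8.70 and 12.5 FPKM in MP (−3.05 ± 0.40 SE; limma adjusted p = 0.00267). Neither overlapped.

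PKNOX2 was at 2.75, 1.34 and 2.13 FPKM in SP and at 20.4, 6.62 and 9.41 FPKM in MP, without overlap (−1.98 ± 0.40 SE; limma adjusted p = 0.00898). These 3 calls held in each of 19 alternatives, but without SP replicate 3, alone or with MP replicate 3, the filter set the direction of MEIS3. MEIS2 lay the other way, at 22.2, 12.1 and 19.9 FPKM in SP and at 10.8, 6.56 and 10.9 FPKM in MP; its values did not overlap, it did not pass (0.86 ± 0.31 SE; limma adjusted p = 0.0575), and it passed without SP replicate 2 (1.11, adjusted p = 0.0412) and with each library rescaled to one sum (1.09, 0.0299). PBX2, PBX3 and PKNOX1 had log2 fold changes of −0.24, −0.69 and −0.06, and PBX3 fell without MP replicate 3 (−0.97, adjusted p = 0.0227). PBX4 was at most 0.257 FPKM.

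**Figure D5:**
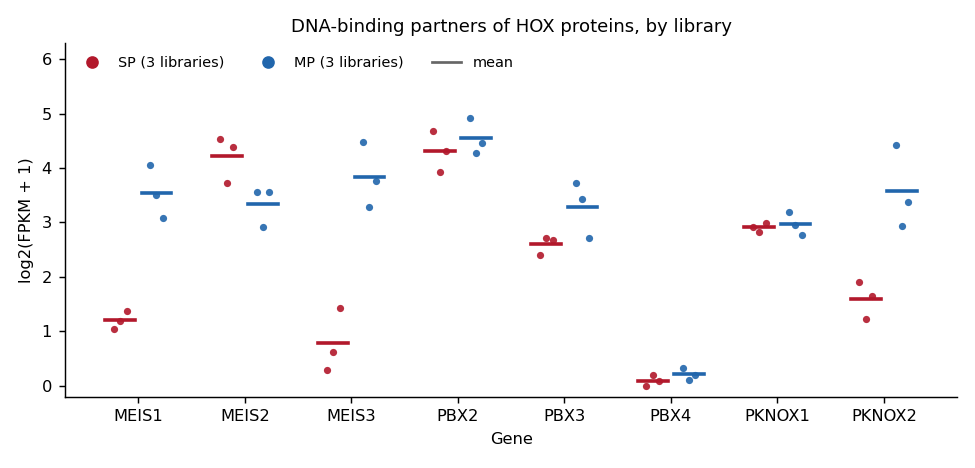
Level of 8 genes for DNA-binding partners of HOX proteins as log2(FPKM + 1) (y axis), with a point per library and a line at the mean of 3 libraries of SP or MP. MEIS1, MEIS3 and PKNOX2 lie lower in every SP library than in any MP library, and MEIS2 lies higher.

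HOX clusters are silenced by polycomb proteins, which place and read methyl groups on lysine 27 of histone H3, and kept active by trithorax proteins. Of 15 tested polycomb genes of 16 listed, 3 rose in SP and 3 fell, a share near the 39.2% called over all tested genes. SUZ12 and EZH2, core parts of the methylating complex, rose by log2 fold changes of 1.87 ± 0.27 and 2.04 ± 0.33 (SE, adjusted p = 0.00342 and 0.00472 by limma). EZH2 was at 32.5, 18.1 and 28.2 FPKM in SP and at 3.81, 5.11 and 8.18 FPKM in MP. Its alternative subunit EZH1 was lower in SP, at a fold change of −1.14 ± 0.25 (SE, adjusted p = 0.0119 by limma), and so was PCGF2 (−0.97 ± 0.25 SE; limma adjusted p = 0.0201). EZH1 was lost without replicate number 1 or 2 (limma adjusted p = 0.0852 and 0.0696).

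PCGF2 was lost without SP replicate 1, 2 or 3 (adjusted p = 0.0632, 0.0521 and 0.0595) or MP replicate 1 (0.0567). The remaining calls, named after their values were seen, were JARID2, higher and under 1 FPKM in all MP libraries, and CBX7, lower. JARID2 was lost without MP replicate 1, 2 or 3 (adjusted p = 0.0757, 0.117 and 0.0679). CBX7 was lost without SP replicate 1 or 3 (0.139 and 0.113) or MP replicate 1, 2 or 3 (0.0809, 0.132 and 0.0524). Each was also lost under other settings. Of the alternatives that tested them, PCGF2 was called in 11 of 19, JARID2 in 7 of 16 and CBX7 in 7 of 19.

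Of 8 trithorax genes 4 rose, none fell and 4 did not pass, and at an unadjusted p under 0.05 the counts were the same. Over all tested genes 39.2% were called, 20.5% higher in SP. KDM6B, which removes the polycomb methyl mark, was at 79.1, 28.9 and 42.6 FPKM in SP and at 6.32, 3.82 and 8.54 FPKM in MP (2.76 ± 0.41 SE; limma adjusted p = 0.00371). KDM6A, an enzyme of the same kind, rose by 1.50 ± 0.26, a call lost without replicate number 2 (limma adjusted p = 0.0507). KMT2B and KMT2A, which methylate lysine 4 of histone H3, rose by 1.88 ± 0.23 and 1.53 ± 0.20 (SE, limma adjusted p = 0.00215 and 0.00268), and KMT2A was under 1 FPKM in all MP libraries, so the filter set its direction.

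Of 7 genes often described as downstream of HOXA10 in endometrium, 5 were tested, 1 fell and none rose. At an unadjusted p under 0.05, 3 were lower and none higher. Over all tested genes 18.7% were called lower in SP and 20.5% higher. FKBP4, a chaperone partner of steroid receptors, fell from 288 ± 65.0 FPKM in MP to 133 ± 14.9 FPKM in SP (SD, n = 3 each), and its log2 fold change was −1.09 ± 0.24 (SE, adjusted p = 0.0121 by limma). The call was lost without replicate number 1 or 2 (limma adjusted p = 0.0889 and 0.084). PTGER4 and IGFBP1 did not pass (−0.88 and −0.68), and LIF and PTGER3 were under the filter and not tested. PTGER3 was at 0.0337, 0.0634 and 0.0386 FPKM in SP and at 0.867, 0.195 and 0.779 FPKM in MP, without overlap. LIF overlapped, with means of 0.851 FPKM in SP and 0.323 FPKM in MP. EMX2, a homeobox gene described as repressed by HOXA10, was at 0.725, 1.22 and 2.78 FPKM in SP and at 12.2, 3.37 and 3.51 FPKM in MP, lower than MP in every SP library like HOXA10 itself, and did not pass (−1.39 ± 0.49 SE; limma adjusted p = 0.0543) except without MP replicate 3 (−1.64, adjusted p = 0.0475). ITGB3, an integrin of the receptive endometrium described as induced by HOXA10, was at 18.5, 19.6 and 30.1 FPKM in SP and at 8.33, 11.5 and 26.0 FPKM in MP (0.66 ± 0.41 SE; limma adjusted p = 0.227), and rose without MP replicate 3 (1.10, adjusted p = 0.028).

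The genes around the clusters, within 200 kb or between HOX genes, numbered 48, of which 15 were tested, 1 rose and 2 fell. Over all tested genes 39.2% were called, a larger share. LOC104972110, a long noncoding RNA listed between HOXA13 and HOXA11 (68850217 to 68857153), was at 0.0744, 0.233 and 0.326 FPKM in SP and at 5.95, 2.67 and 8.28 FPKM in MP (−2.36 ± 0.35 SE; limma adjusted p = 0.00358), a direction set by the filter. It lay low in the same libraries as HOXA9, HOXA10 and HOXA11. Outside the clusters ATP5MC1, a subunit of ATP synthase beside HOXB, had −1.39 ± 0.31 (SE, limma adjusted p = 0.0125), which was lost without replicate number 2 (0.098). UBE2Z, a ubiquitin-conjugating enzyme gene beside HOXB, had 0.88 ± 0.29 (SE, limma adjusted p = 0.0447), which was lost without SP replicate 1, 2 or 3 (adjusted p = 0.123, 0.084 and 0.105) or MP replicate 1 or 2 (0.11 and 0.0904), with no filter (0.0727) and with the replicate number as a block (0.0562). MTX2 and LNPK, which flank HOXD, and SKAP2, which flanks HOXA, did not pass (log2 fold changes −0.44, −0.18 and 0.07).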

How the data were processed

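The authors deposited, per the file headers, a table of FPKM values for each library; no further scaling is stated. The submitters' processing notes name cutadapt 2.5, HISAT2 2.1.0 and ARS-UCD1.2; which program derived FPKM, with which annotation and with or without strand, is not given. Per the labels' protocols, libraries were made with a stranded poly(A) kit. Locus starts were counted from 0 in the files and are given from 1; loci include introns. The row without a gene name, 0.18% to 1.91% of the values, was left out. Relative depth is the commonest ratio of values under 0.3 FPKM between libraries. An exact 0 can be a failed estimate, so such genes are called listed at 0.

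Sample titles gave the groups and replicate numbers; the column headers number replicate 3 of both populations as 4. The two-sided test was limma 3.58.1 (R 4.3.3, eBayes with a trend) on log2(FPKM + 1), for the 12127 genes that reached 1 FPKM in 3 or more of the 6 libraries, at an adjusted p under 0.05. The fit was tested on simulated data of SP against MP over 12127 genes, of which 200 were changed. It recovered 26% of genes changed by 1, 84% by 2, 92% by 3 and 88% by 4 on the log2 scale. Of its calls 4.61% were unchanged genes. In the real data 39.2% of tested genes were called, so these rates need not hold there. All tested members and partner genes are named, except for items that are not reported here, and of other lists up to 4 called genes by smallest p. EMX2, ITGB3, MTX2, LNPK and SKAP2 were named after their values were seen. Members and lists were chosen with earlier results of these data known. The alternatives were other pseudocounts, filters, scalings and variance models, a replicate block, and each library or replicate number left out. With 1 library left out, the filter was 3 of 5, and with a replicate number left out 2 of 4.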

Additional observations from a re-analysis of the deposited data

How the results depend on the processing

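No called HOX or partner gene described here changed direction in any of 19 alternatives, and 8 of 12 were called in each alternative that tested them; the others were HOXD1, HOXD3, HOXD4 and HOXD11. Without SP replicate 3 or replicate number 3, the filter set the direction of HOXA10, HOXA11 and MEIS3, which are among the 8. HOXD11 was also lost with no filter (adjusted p = 0.102), a filter of 0.1 FPKM (0.0526), libraries rescaled to one sum (0.0607) and quantile normalization (0.051). Rescaling to one sum moved the median of all genes to 0.19 and the share of calls higher in SP from 52.3% to 68.0%; 7 HOX genes then rose and 3 fell, and 1 partner gene (MEIS2) rose. Leaving out single libraries, the calls over all genes ranged from 2421 to 4455, HOX genes higher from 1 to 6 and lower from 3 to 4, and partner genes higher from 0 to 1. The count of 1 HOX gene higher was reached without SP replicate 1 or 3, where HOXB3, HOXD3 and HOXD4 were no longer tested. The 1 partner gene higher was MEIS2 without SP replicate 2, where those HOX genes were not tested either. Leaving out a replicate number (2 against 2), calls over all genes ranged from 1112 to 3574 and HOX genes higher from 2 to 4; without number 1 HOXD1, HOXD3 and HOXD4 were lost (adjusted p = 0.158, 0.131 and 0.103), without number 2 HOXD1 and HOXD11 (0.0791 and 0.155), and without number 3 HOXD3, HOXD4 and HOXD11 (0.111, 0.0913 and 0.091).

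Deviations from the group means correlated at 0.10, 0.53 and −0.09 between libraries of the same number, and 2 of 6 libraries correlated best with their own number. The numbers were therefore not taken as pairs in the main fit. Yet LOC519274 and LOC100848443, described below, were ordered alike over the numbers in both populations. Whether equal numbers mark one animal is not stated, so a pairing remains possible. With the replicate number as a block 4793 genes were called, 7 HOX genes rose, with HOXD8 and HOXD9 added (adjusted p = 0.0392 and 0.0406), 5 fell, with HOXB8 added (0.0443), and 1 partner gene (MEIS2, 0.027) rose.

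Genes that did not pass changed sign as follows. HOXA3 ranged from −0.70 to 0.17, with 0.17 without SP replicate 1 and 0.07 without MP replicate 2. HOXA5 ranged from −0.25 to 0.37 and was below 0 without SP replicate 2 (−0.08), MP replicate 2 (−0.09) and number 2 (−0.25). HOXB2 ranged up to 0.50 and had −0.24 without SP replicate 3, −0.26 without MP replicate 1, and −0.17 and −0.01 without numbers 1 and 3. HOXB7 ranged up to 0.39 and had −0.21 without MP replicate 1 and −0.10 without number 1. HOXC6 ranged up to 0.40 and had −0.05 without SP replicate 1, and −0.07 and −0.01 without numbers 1 and 2. PKNOX1 ranged down to −0.20 and had 0.13 rescaled to one sum, 0.05 without MP replicate 1 and 0.04 without number 1. LOC519274 ranged down to −2.01 and had 0.91, 0.77 and 0.06 without SP replicate 2, MP replicate 1 and MP replicate 3, and LOC100848443 ranged down to −0.88 and had 0.04 without MP replicate 2. The cause of these changes was not tested. Members near 0 in the shallower SP libraries are measured least firmly.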

Other observations

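2 neighbours of the clusters, singled out after their values were seen, followed the replicate number more than the population. LOC519274, a protein-coding entry beyond HOXD13 (chromosome 2, 20883897 to 20884294), measured 33.5, 0.408 and 12.1 FPKM in SP against 55.6, 0.202 and 20.2 FPKM in MP (replicates 1, 2 and 3), so both libraries of number 2 were under 1 FPKM and the other 4 above 10 FPKM. LOC100848443, a long noncoding RNA beside HOXA2, was at 9.30, 26.7 and 12.7 FPKM in SP and at 14.2, 43.0 and 14.5 FPKM in MP, highest in number 2 in both populations. Neither passed the test of SP against MP (log2 fold changes −0.39 ± 1.56 and −0.47 ± 0.51 SE; limma adjusted p = 0.852 and 0.485).

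A further long noncoding RNA, LOC101907241, is listed between HOXC11 and HOXC12 and was under the filter. It was at 0.0336, 0.105 and 0.0185 FPKM in SP and at 1.01, 0.264 and 0.237 FPKM in MP, without overlap, while HOXC11 was at most 0.0315 FPKM and HOXC12 is listed at 0. LOC112446395, listed at the same locus as LOC104972110 between HOXA13 and HOXA11, is listed at 0 in every SP library and measured 0.939, 0.910 and 0.484 FPKM in MP.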
